A study of Mus musculus with 18 samples.

Results

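The comparison described here is AZD IP against tumor IP: ribosome-bound RNA from the brains of glioma-bearing mice treated with AZD8055 set against that of glioma-bearing mice left untreated. Its members were taken from the labels for treatment and fraction, which gave 3 AZD IP and 3 tumor IP libraries, 6 of the 18 in the series. All groups used here carried the genotype Camk2a-Cre-Rpl22HA, in which Cre recombinase, driven from the promoter of Camk2a, a kinase gene of forebrain excitatory neurons, switches on an HA-tagged copy of the ribosomal protein Rpl22. IP is the RNA immunoprecipitated with the tagged polysomes, and input is the total RNA. Control mice had no tumor, tumor mice had glioma cells implanted in the cortex, and AZD mice had the same implantation and received AZD8055. The labels give no dose, schedule, age, sex or glioma line. Nor do they tie the numbers to animals, so a p-value here reflects library-to-library spread, part of which may be technical.

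AZD8055 blocks the mTOR kinase at its ATP site. The kinase works in a pair of complexes that couple nutrients and growth factors to translation, lipid synthesis, autophagy and cell growth. mTOR complex 1 acts on translation through the 4E-BP proteins and S6 kinases, most strongly on mRNAs that begin with a 5' terminal oligopyrimidine (TOP) tract, and on transcription through ATF4 and the sterol regulators SREBP. In neurons the pathway is known for its part in protein synthesis at synapses. The study set out to compare the 3 conditions in the IP fraction, and AZD IP against tumor IP is the step that asks what the inhibitor changed in RNA on neuronal ribosomes of tumor-bearing brain.

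IP libraries held 13561511 to 34178417 counts (AZD IP 13561511 to 31052149, tumor IP 16673120 to 31561226) and input libraries 14735054 to 23448015. Library names place the AZD libraries of both fractions in a set of their own (PD028), control and tumor IP in PD015, and control and tumor input in PD013. Treatment and library set therefore change together in AZD against tumor and cannot be told apart, in IP and in input alike. Where input values stand beside IP values below they show what the unfractionated RNA did, across library sets PD028 and PD013. Levels are CPM, given in the order of replicates 1, 2 and 3. They are counts over a library total, scaled by TMM among the 9 libraries of its own fraction. IP and input levels are therefore on separate scales where they stand side by side, also in counts of genes that lie beyond all other libraries. IP minus input comes from a fit of all 18 libraries. A log2 fold is AZD over tumor with its standard error, and a gene passed at an edgeR adjusted p under 0.05.

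Over all genes, 9229 of 15734 tested passed (58.7%), with 3954 higher in AZD IP (25.1%) and 5275 lower (33.5%). Fallen genes moved further: 1272 of the lower genes (24.1%) lay beyond a log2 fold of 2, against 26 of the higher genes (0.658%). In input the same contrast called 2646 of 15511 genes (17.1%), 1224 higher (7.89%) and 1422 lower (9.17%). The test of the difference, IP minus input, called 5296 of 16016 genes (33.1%; 1969 higher, 3327 lower), and 8025 when the replicate number within each condition was a block. Among genes higher in IP, 645 (16.3%) were also higher in input, and among genes lower in IP 1113 (21.1%) were also lower in input. Against control IP, 47% of genes passed in tumor IP and 33.3% in AZD IP, comparisons that share their control libraries. In 1616 of the higher genes (40.9%; 66.8% with the block) and 2798 of the lower (53%; 69.3%) the IP difference exceeded that of input in its own direction.

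The scale matters for every direction given here. TMM scaling left the median log2 fold of all genes at -0.094. Scaling the libraries instead on the excitatory-neuron markers moved that median to -1.02, and 196 genes were then higher and 12203 lower. A list said below to have risen rose relative to the bulk of RNA in the IP, and its median on the excitatory-neuron scale follows where the sign turns. Single genes are treated alike, and 20 named as risen kept a positive log2 fold on that scale (0.033 to 0.33) but no longer passed: Slc17a7, Camk2a, Nptx1, Crym, Fezf2, Slc12a5, Gabra5, Gabbr2, Kcnj6, Deptor, Nprl2, Sesn1, Uqcr10, Cox7a2, Ndufa5, Pfkp, Atp6v1c1, Gabarapl1, Hsp90aa1 and Cry2. Of these, Slc17a7, Camk2a, Nptx1 and Fezf2 are among the markers that set the scale, as is Cux2 below. Smaller folds of such markers on that scale follow from the scaling and are no separate result. Another 13 named genes that did not pass under TMM were lower and passed on that scale (log2 folds -1.52 to -1.04). They are Actb, Arc, Asns, Bdnf, Cd68, Eef2, Foxp2, Gad2, Hspa5, Nptx2, Rps6kb1, Stat2 and Tle4, of which Foxp2 and Tle4 also set the scale.

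Cell type markers differed widely between the IP groups. RNA of glia, vessel cells, microglia, inhibitory neurons and the glioma lineage was lower in AZD IP than in tumor IP across nearly whole marker lists, while markers of excitatory neurons were higher. All 25 tested markers of the glioma and oligodendrocyte precursor lineage were lower, as were 24 of 25 astrocyte, 24 of 24 oligodendrocyte, 25 of 27 microglia and macrophage and 25 of 25 endothelial and pericyte markers, against a background of 33.5%. In input the median log2 folds were 0.072 (astrocyte), -0.063 (oligodendrocyte), 0.055 (microglia and macrophage) and -0.016 (endothelial and pericyte). IP against input called 61.5% of genes in AZD and 36.5% in control. In bulk libraries fewer cells of a type and less RNA per cell cannot be told apart. Why IP and input differed for these lists was not tested.

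Summed astrocyte markers stood at 6566 to 8764 CPM in tumor IP and 2528 to 3281 CPM in AZD IP. Total RNA showed no such gap, with 8218 to 9772 CPM in tumor input and 9179 to 11407 CPM in AZD input. The range of tumor IP overlapped that of its input for astrocyte RNA. Each tumor IP library was below its same-numbered input (6566, 8270 and 8764 against 8218, 9509 and 9772 CPM). Control IP was also near its input (10499 to 11480.1 CPM against 12138 to 13024 CPM), and AZD IP stood apart from all of them. Aqp4, the astrocyte water channel, was at 306, 276 and 224 CPM in tumor IP and 44.1, 42.0 and 46.4 CPM in AZD IP. The groups lay far apart, with a log2 fold of -2.60 ± 0.12 (adjusted p = 1.54e-07), against -0.38 in input (adjusted p = 0.0938). Gfap, the intermediate filament of reactive astrocytes, was at 442, 471 and 247 CPM and 103, 40.0 and 45.8 CPM, and its log2 fold was -2.63 ± 0.35. Slc1a3 (log2 fold -2.33) and Aldoc (-2.06), a glutamate transporter and a glycolytic enzyme of astrocytes, fell likewise, as did Acsbg1 (-2.68), an acyl-CoA synthetase. IP minus input was lower for 25 of 25 astrocyte markers.

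Oligodendrocyte markers summed to 1401 to 2642 CPM in tumor IP and 513 to 759 CPM in AZD IP. Cnp, a myelin enzyme, was at 149.8, 200.3 and 210.2 CPM against 29.2, 29.8 and 41.9 CPM, a log2 fold of -2.47 ± 0.18, and Cldn11, the tight-junction protein of myelin, had one of -2.36 ± 0.24. Mbp, myelin basic protein, varied more between libraries, at 170.0, 471 and 483 CPM in tumor IP and 160.1, 174 and 250.03 CPM in AZD IP. Its groups overlapped, and its log2 fold was -0.94 ± 0.33 (adjusted p = 0.0307). The call for Mbp was lost without AZD IP replicate 1 or 2 (-0.82 and -0.87) or tumor IP replicate 2 or 3 (-0.75 and -0.72). It was also lost with the 6 compared libraries fitted alone (-0.86). In input the list's median log2 fold was -0.063, with 0 members higher and 2 lower.

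Microglia and vessel markers followed the same course. C1qa, a complement subunit made by microglia, was at 29.7, 33.7 and 31.8 CPM in tumor IP and 8.11, 4.94 and 6.37 CPM in AZD IP, a log2 fold of -2.32 ± 0.17. In input it rose, from 34.3, 31.4 and 23.3 to 45.4, 43.5 and 36.9 CPM (log2 fold 0.50 ± 0.15, adjusted p = 0.0413), so its movement in IP ran against that of total RNA. C1qb and Itgam, an integrin of myeloid cells, fell in IP with log2 folds of -2.14 and -2.82. Cd68, a macrophage lysosomal protein, was among those that did not pass (log2 fold -0.49 ± 0.33, adjusted p = 0.22), though it did without AZD IP replicate 1 (-0.97). Flt1 and Cldn5, a VEGF receptor and a tight-junction protein of endothelium, fell with log2 folds of -2.52 ± 0.25 and -2.17 ± 0.29. Slc2a1, the glucose transporter of brain endothelium, fell in IP (log2 fold -0.85 ± 0.15) and rose in input (0.73 ± 0.11). Of the rarer types, 1 of 11 choroid plexus and ependyma markers was higher (9.09%) and 4 lower (36.4%, against 33.5% of all genes). T cell markers summed to 6.57 to 9.66 CPM in tumor IP and 2.84 to 4.71 CPM in AZD IP, where 3 of 8 (Cd3g, Cd8b1 and Cd2) had 0 counts in all AZD IP libraries, while tumor IP held few. Erythrocyte markers summed to 32.1, 4.0 and 6.09 CPM in tumor IP, where replicate 1 stood apart, and to 3.01, 1.79 and 2.99 CPM in AZD IP. Both α-globin genes (Hba-a1, Hba-a2) had 0 counts in tumor IP as in AZD IP, so these sums rest on 1 marker.

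Markers of the glioma and oligodendrocyte precursor lineage differed most, with a median log2 fold of -3.00 in IP and -0.98 in input. They summed to 8085 to 9263 CPM in tumor IP, 1058 to 1303 CPM in AZD IP and 1054 to 1233 CPM in control IP, so AZD IP overlapped the range of mice without tumor. AZD input lay between its neighbours, with 5543 to 7325 CPM against 10540.2 to 13464 CPM in tumor input and 1295 to 1516 CPM in control input. Pdgfra, the growth factor receptor that marks precursors and many gliomas (chromosome 5, 75151322 to 75198206, GRCm38), was at 2488, 1886 and 2269.7 CPM in tumor IP and 328, 233 and 259 CPM in AZD IP. Its log2 fold was -3.02 ± 0.19 (adjusted p = 7.52e-07), against -0.72 ± 0.22 in input. Gpr17, a receptor of cells committed to the oligodendrocyte lineage, had the largest fall of the list, from 145, 257 and 347 to 10.7, 12.5 and 15.8 CPM (log2 fold -4.25 ± 0.29). The lineage transcription factors Olig1 (-3.77), Olig2 (-3.42) and Sox2 (-2.83) fell, as did the proteoglycans Cspg4 (-3.00) and Bcan (-3.20), the matrix protein Matn4 (-3.88) and the endothelin receptor Ednrb (-3.86). In input 18 of the 25 were lower too, and IP minus input was lower for 23 of 25 (25 with the block).

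Genes of the cell cycle fell with them. All 30 tested proliferation genes were lower in AZD IP, with a median log2 fold of -2.19 against -0.24 in input. The AZD input libraries went opposite ways, with the list summing to 1857 CPM in replicate 1, above tumor input (1398 to 1529.6 CPM), and to 811 and 665 CPM in replicates 2 and 3, below it. Mki67, the nuclear proliferation marker, was at 165, 200.4 and 175 CPM in tumor IP and 62.8, 23.4 and 25 CPM in AZD IP (log2 fold -2.30 ± 0.33). AZD IP replicate 1 was the highest of its group for Mki67 and for Top2a, a topoisomerase of dividing cells (43.2, 16.4 and 16.0 CPM, tumor IP 208, 213 and 210.5 CPM). Cdk1, the mitotic kinase, had a log2 fold of -2.72 ± 0.24, and Pcna, the replication clamp, the smallest of those named at -0.67 ± 0.13. Against control IP the median log2 fold of the list was 1.63. Of 20 replication-dependent histone genes 18 were lower, with Hist1h1b at 50.7, 55.7 and 65.1 CPM against 11.3, 8.44 and 12.1 CPM.

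**Figure D1:**
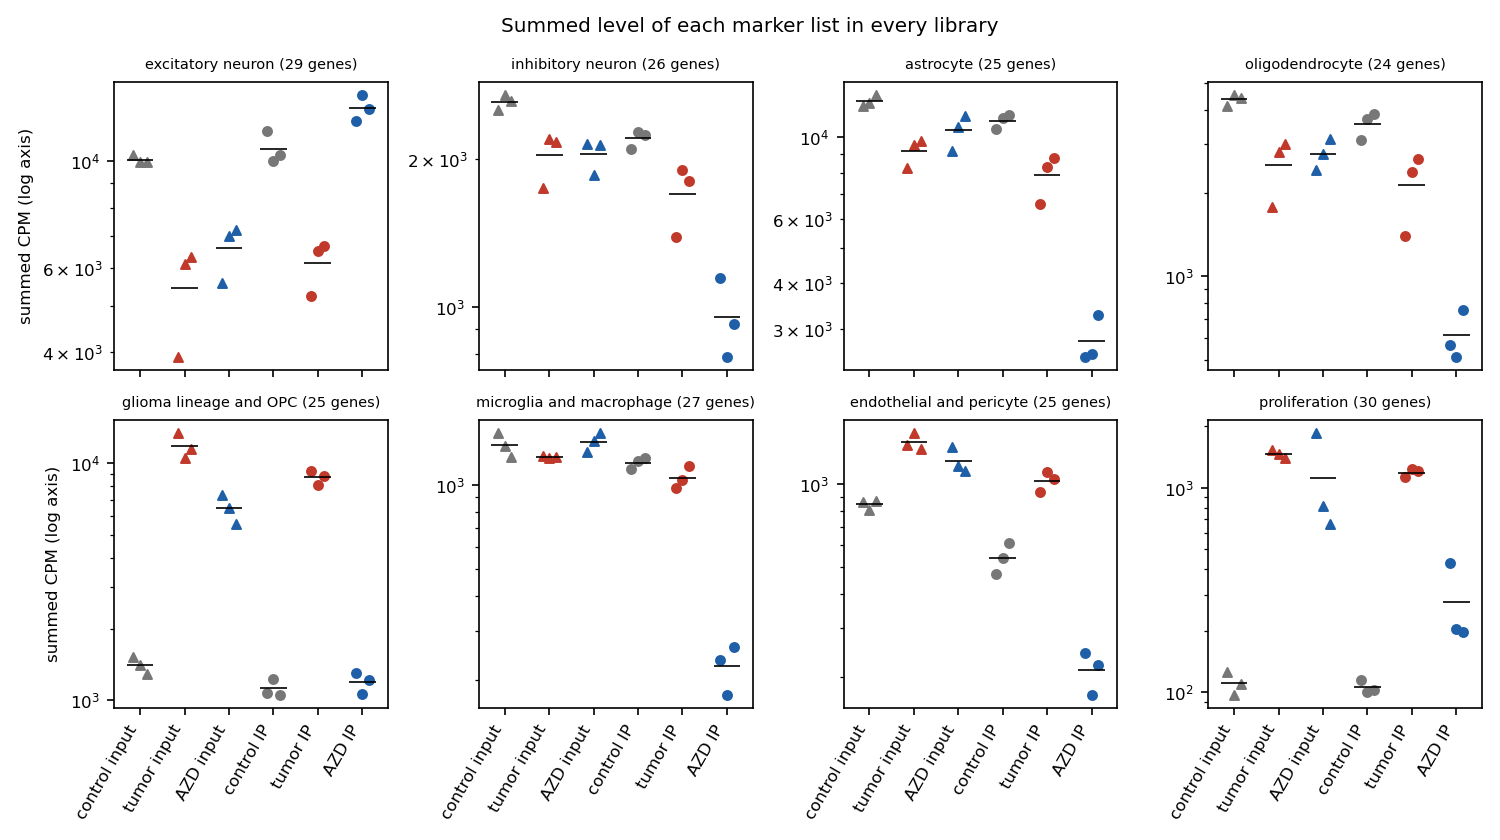
Each panel gives the summed level (CPM, log axis) of a marker list in every library, with triangles for input, circles for IP, grey for control, red for tumor, blue for AZD and a bar for the group mean. Excitatory-neuron markers are highest in AZD IP (12124 to 13765 CPM), and the other lists are lowest there, except that the glioma list overlaps control IP and the proliferation list lies above it.

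Inhibitory-neuron markers fell as well, in 21 of 26 tested, with a median log2 fold of -1.29 in IP and 0.15 in input. Gad1, the enzyme that makes GABA, was at 173, 305 and 255 CPM in tumor IP and 106, 48.0 and 87.6 CPM in AZD IP (log2 fold -1.61 ± 0.27). Interneuron peptides were low, with Sst at 13.5, 30.003 and 23.2 CPM against 8.18, 5.92 and 10.1 CPM. Vip fell in IP (log2 fold -1.75 ± 0.32) and rose in input (0.86 ± 0.23). Gad2, a second GABA-synthesising enzyme, was at 173, 292 and 218 CPM against 234, 73.7 and 129.7 CPM, and AZD IP replicate 1 lay inside the tumor range (adjusted p = 0.116). Without AZD IP replicate 1 Gad2 passed (log2 fold -1.16). Erbb4, the neuregulin receptor of interneurons, fell by 1.73 on the log2 scale. Sox6, which the precursor lineage also expresses, had a log2 fold of -3.11. Cck was the exception of the list, rising from 99.8, 97.9 and 87.9 to 354, 302 and 256 CPM, and is a peptide that cortical pyramidal cells also transcribe.

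Excitatory-neuron markers rose in 24 of 29 (82.8% against a background of 25.1%) and fell in 0, with a median log2 fold of 1.06 in IP and 0.19 in input. Summed, they stood at 5252 to 6654 CPM in tumor IP, 12124 to 13765 CPM in AZD IP and 10008 to 11578 CPM in control IP. The range of tumor IP overlapped that of its input (3919.7 to 6327 CPM). Each tumor IP library was nonetheless above its same-numbered input (5252, 6505 and 6654 against 3920, 6100 and 6327 CPM). AZD IP lay wholly above AZD input (5590.2 to 7209.5 CPM). Slc17a7, the vesicular glutamate transporter of cortical excitatory neurons (chromosome 7, 45163921 to 45176139), was at 619, 650.0 and 505 CPM in tumor IP and 1438, 1203 and 1066 CPM in AZD IP, a log2 fold of 1.06 ± 0.16 (adjusted p = 0.000228). Its level in input hardly differed, with a log2 fold of -0.073 ± 0.16. Camk2a, whose promoter drives Cre here, was at 529, 754 and 794 CPM in tumor IP and 929, 1859 and 1899 CPM in AZD IP (log2 fold 1.17 ± 0.25), and AZD IP replicate 1 was the lowest of its group. Nrgn, a calmodulin-binding protein of dendrites, rose from 125, 159 and 144 to 341, 411 and 391 CPM (log2 fold 1.42 ± 0.13, input -0.24). Sv2b, Chn1 and Neurod6, a vesicle protein, a Rac regulator and a transcription factor of pyramidal cells, had log2 folds of 1.35, 1.40 and 1.63. Nptx1, a secreted pentraxin, had one of 1.10. IP minus input was higher for 15 of the 29, and for 21 with the block.

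Layer identity genes did not move as a body: 11 of 30 were higher (36.7%) and 7 lower (23.3%), against 25.1% and 33.5% of all genes. Their median log2 fold was 0.17 (-0.72 on the excitatory-neuron scale). Fezf2, a determinant of deep-layer projection neurons, was at 7.43, 7.96 and 6.44 CPM against 17.2, 17.7 and 14.1 CPM and rose, as did Crym (1.26), Lamp5 (1.81) and the upper-layer factor Cux2 (0.72; -0.20 on the excitatory-neuron scale). Foxp2 and Tle4, deep-layer factors, did not pass (log2 folds -0.50 ± 0.21 and -0.48 ± 0.22) but did so without tumor IP replicate 1 (-0.76 and -0.75). Pou3f3, an upper-layer factor, fell with a log2 fold of -1.20 ± 0.08.

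Synaptic machinery rose with these markers on the TMM scale. Of 48 synaptic vesicle and release genes 39 were higher and 3 lower, with a median log2 fold of 0.93 in IP and 0.32 in input. On the excitatory-neuron scale 12 were higher and 14 lower, with a median of 0.023. The list's median was -0.86 in tumor IP against control IP and 0.045 in AZD IP against control IP, comparisons that share libraries with the present one. Stx1a, a SNARE of the presynaptic membrane, was at 56.4, 74.0 and 117 CPM in tumor IP and 185, 365 and 337 CPM in AZD IP. Its groups did not overlap and its log2 fold was 1.84 ± 0.29, the largest of the list. Syp (synaptophysin), Nsf (the ATPase that recycles SNAREs) and Rab3a (a vesicle GTPase) had log2 folds of 1.30, 1.29 and 1.38. Unc13c, a priming factor, went the other way, from 105.3, 126 and 140.4 to 38.8, 38.6 and 52.8 CPM (log2 fold -1.51 ± 0.16). IP minus input was higher for 25 of the 48 (35 with the block). The glial, vessel and glioma marker sums given above fell over the same 6 libraries, and their part in these and the following neuronal lists was not tested.

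Of 44 glutamate synapse genes, 23 were higher and 10 lower in AZD IP (median log2 fold 0.36; -0.54 on the excitatory-neuron scale). Grin2a, an NMDA receptor subunit of mature synapses, rose from 51.8, 71.6 and 77.7 to 119, 174 and 169.7 CPM. Gria1, an AMPA receptor subunit, and Dlg4, the scaffold PSD-95, rose with log2 folds of 0.84 ± 0.09 and 0.86 ± 0.13 (-0.083 and -0.049 on the excitatory-neuron scale). Gria4, another AMPA subunit, fell from 410.5, 371 and 406 to 178, 190.4 and 193 CPM, with control IP at 174, 178 and 181 CPM. The NMDA subunit Grin2c (-1.74), known from astrocytes and cerebellum, and the scaffold Homer3 (-2.46) fell. Among GABA receptor and chloride transport genes 15 of 22 were higher and 3 lower (median 0.74; -0.16 on the excitatory-neuron scale). Slc12a5, the neuronal chloride extruder KCC2, was at 192, 266 and 325 CPM against 411, 665 and 600.1 CPM, a log2 fold of 1.10 ± 0.21. Slc12a2, the chloride importer NKCC1, moved the opposite way, from 253, 190.4 and 228 to 64.6, 68.7 and 80.7 CPM (-1.65 ± 0.13). The receptor subunits Gabra5 and Gabbr2 rose (1.06 and 0.99), and Gabrg1, a subunit also found in glia, fell (-0.76).

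Ion channel genes rose on the TMM scale, with 30 of 52 potassium channel genes higher and 6 lower (median 0.56; -0.36 on the excitatory-neuron scale) and 17 of 28 sodium, calcium and HCN channel genes higher and 1 lower (0.70; -0.20). Kcnip4, a partner of A-type potassium channels, was at 26.3, 42.0 and 44.0 CPM against 88.5, 102 and 86.5 CPM. Kcnj6 and Kcnab2, a G-protein-gated channel and an accessory subunit, had log2 folds of 1.14 ± 0.10 and 1.17 ± 0.11. Kcnj10, the inward rectifier of astrocytes, fell from 145, 243 and 186 to 39.1, 24.1 and 35.4 CPM. Cacna2d1, a calcium channel subunit, and Pex5l, which traffics HCN channels, rose with log2 folds of 1.22 and 1.20. Cacna2d2 was the channel gene of the second list that fell (-0.76 ± 0.25). It no longer passed without AZD IP replicate 2 or 3 (-0.51 and -0.70) or tumor IP replicate 2 (-0.60), or with the 6 compared libraries alone (-0.67).

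Receptors for monoamines, acetylcholine and peptides were higher in 18 of 38 and lower in 4 (median 0.56; -0.33 on the excitatory-neuron scale). Htr2a, a serotonin receptor of cortical pyramidal cells, was at 32.0, 42.9 and 45.4 CPM against 104.5, 104.7 and 98.8 CPM. The muscarinic receptor Chrm1 (1.36) and the adrenergic receptor Adra2a (1.60) rose, and the dopamine receptor Drd2 fell (-1.22 ± 0.39) with overlapping groups. The Drd2 call was lost without AZD IP replicate 2 (-1.06) or tumor IP replicate 2 or 3 (-0.92 and -1.05). It was also lost with the 6 compared libraries fitted alone (-1.13). Neuronal cytoskeleton genes rose in 20 of 33 and fell in 6 (median 0.59; -0.31 on the excitatory-neuron scale). Stmn2, a microtubule regulator of growing axons, and Nefm, a neurofilament, rose with log2 folds of 1.36 ± 0.13 and 1.62 ± 0.28. The spectrin genes were the opposite: Sptan1 was at 1696, 2886 and 3387 CPM in tumor IP, 966, 1049 and 1216 CPM in AZD IP and 1313, 1114 and 1247 CPM in control IP. Its log2 fold was -1.30 ± 0.22 in IP and 0.33 ± 0.14 in input (IP minus input adjusted p = 0.000432), and Sptbn1 had -1.59 ± 0.23 and 0.27 ± 0.17. Neuropeptide and secretory granule genes were higher in 9 of 25 (36%) and lower in 3 (12%). Activity effector genes were higher in 10 of 28 (35.7%) and lower in 6 (21.4%), against 25.1% and 33.5% of all genes. Vgf, a granule protein on both lists, rose (0.88 ± 0.13, and -0.067 on the excitatory-neuron scale).

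**Figure D2:**
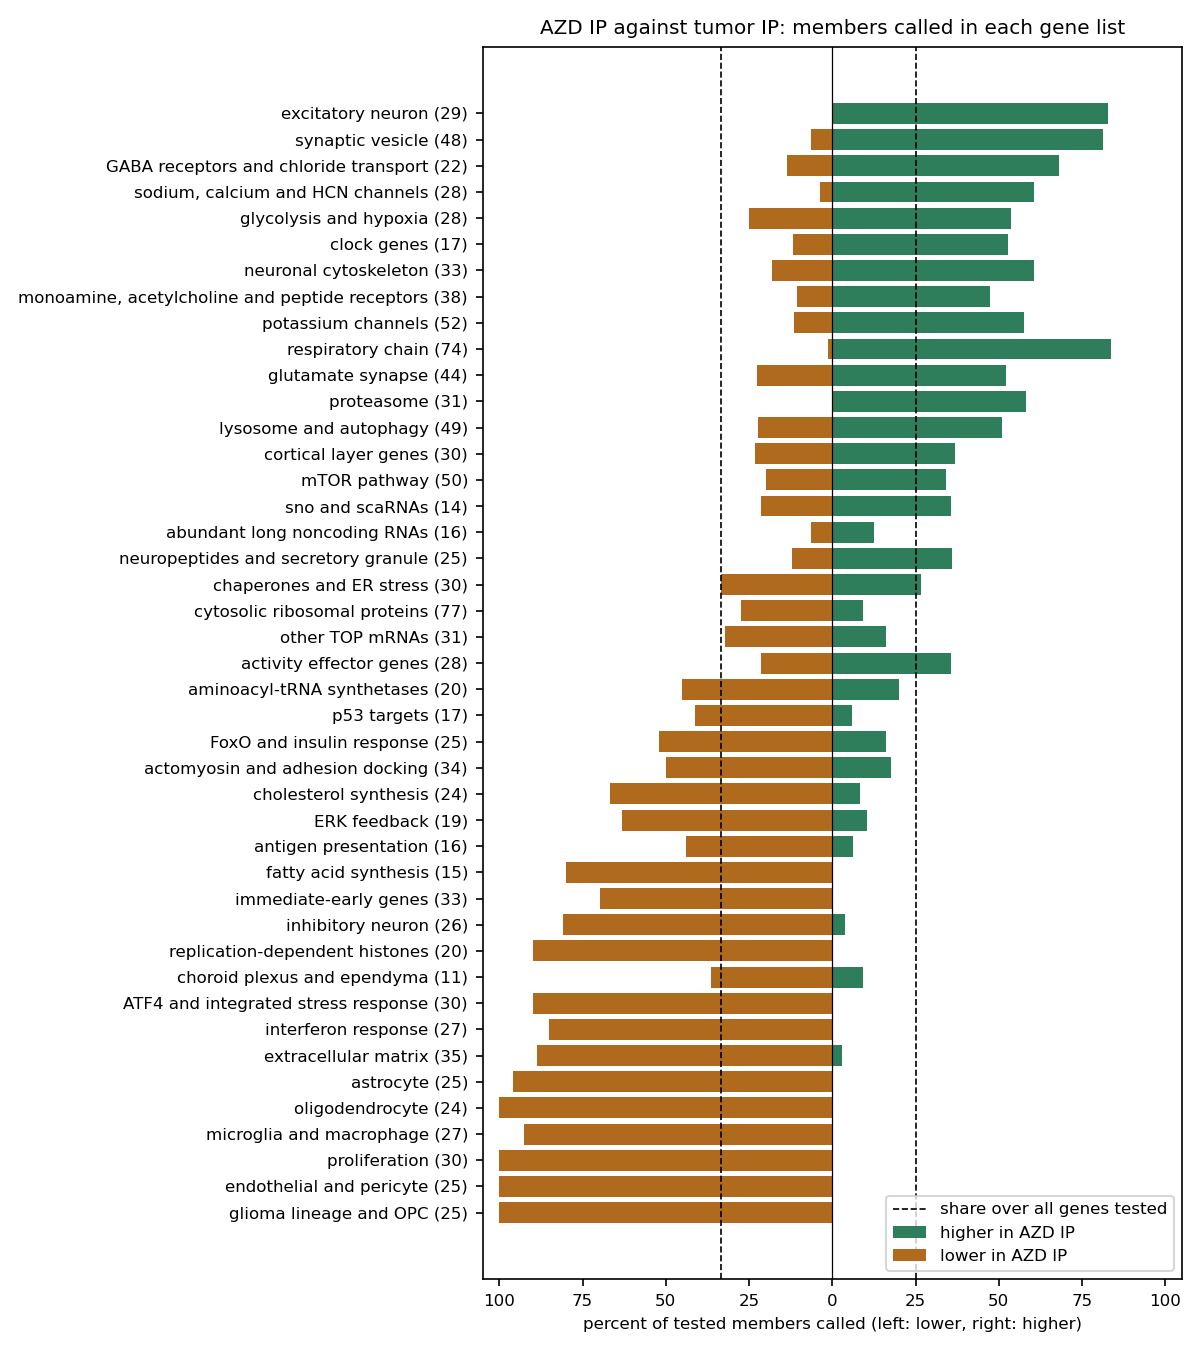
Bars give the percent of each list's tested members (number in brackets) called higher (right) or lower (left) in AZD IP against tumor IP, ordered by median log2 fold on the TMM scale, with dashed lines at the shares over all genes tested, 25.1% higher and 33.5% lower. Excitatory-neuron, synaptic vesicle and respiratory chain genes reach 81.2% to 83.8% higher, and glioma, vessel, proliferation and oligodendrocyte lists are 100% lower; scaled on excitatory-neuron genes, the median of the respiratory chain and of most other rising lists is below 0.

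Some gene groups fell in both fractions. ATF4 and integrated stress response genes, which supply amino acids and one-carbon units, were lower in 27 of 30 in IP (median log2 fold -1.58) and in 15 of 30 in input (-0.78). IP minus input was lower for 9 of them and higher for 1 (17 and 2 with the block). Mthfd2, a mitochondrial folate enzyme, was at 35.2, 20.5 and 24.1 CPM in tumor IP and 4.63, 5.04 and 3.68 CPM in AZD IP, and at 42.5, 20.02 and 22 CPM in tumor input and 4.94, 7.48 and 5.74 CPM in AZD input. Both AZD groups lay wholly below their tumor groups, with log2 folds of -2.58 ± 0.21 in IP and -2.23 ± 0.28 in input. Atf4 itself, the transcription factor that mTOR complex 1 controls, was at 186, 125 and 136 CPM against 79.6, 86.2 and 78.1 CPM in IP (log2 fold -0.87 ± 0.14) and fell by a like amount in input (-0.91 ± 0.16). Trib3, a pseudokinase induced by ATF4, was scarce at 2.44, 1.35 and 0.938 CPM against 0, 0.0701 and 0.197 CPM (log2 fold -3.79 ± 0.63). The serine synthesis enzymes Phgdh and Psat1 fell further in IP (-3.47 ± 0.18 and -2.33 ± 0.12) than in input (-0.93 and -0.65; IP minus input adjusted p = 2.78e-05 and 2.02e-05), and both are also made by astrocytes. Asns, asparagine synthetase, fell in input (-0.86 ± 0.18, adjusted p = 0.0102) and was at 233, 135 and 157 CPM against 188, 163 and 132 CPM in IP, with overlapping groups (adjusted p = 0.605).

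ATF4 binds with a C/EBP partner to CARE elements, and the letters TGATGNAA on either strand were searched in the 300 bases from 250 before to 50 after each RefSeq start (GRCm38.p6), as a description of the promoters of this list. They were found in 7 of the 25 ATF4-list promoters held in the table (28%) and 5 of 12 of aminoacyl-tRNA synthetases (41.7%), against 328 of 11459 promoters of all genes tested (2.86%). Chac1 and Nupr1 were chosen for holding the letters after their values were seen. The windows below show the element in capitals for genes that moved to different degrees in IP.
Asns (chr6:7693210-7693254, minus strand): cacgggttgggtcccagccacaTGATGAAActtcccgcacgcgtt
Slc7a11 (chr3:50443650-50443701, minus strand): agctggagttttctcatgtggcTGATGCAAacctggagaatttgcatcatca
Chac1 (chr2:119351027-119351078, plus strand): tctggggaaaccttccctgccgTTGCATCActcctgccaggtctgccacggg
Nupr1 (chr7:126625551-126625602, minus strand): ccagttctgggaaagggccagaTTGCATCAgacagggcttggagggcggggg
Slc7a11 carries a second copy of the letters, here in lower case. The log2 folds of these genes in IP ran from -0.12 for Asns through -1.04 ± 0.21 for Chac1, a glutathione-degrading enzyme, and -1.47 ± 0.10 for the cystine carrier Slc7a11 to -1.98 ± 0.49 for the stress factor Nupr1. In input the values were -0.86, -1.65, 0.32 and -0.54 in the same order, so holders of the letters did not share a size of change. Promoters without the letters included those of Mthfd2, Phgdh and Psat1, which fell in IP.

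Aminoacyl-tRNA synthetases, which charge tRNAs, were lower in 9 of 20 (45%) and higher in 4 (20%) in IP, against 33.5% and 25.1% of all genes. In input 10 were lower. Mars, the methionine enzyme, was at 88.2, 59.7 and 68.0 CPM against 40.0, 44.1 and 39.1 CPM (log2 fold -0.81 ± 0.13 in IP, -0.80 in input). Iars and Eprs fell with log2 folds of -0.59 and -0.91, and Hars rose (0.58 ± 0.13; -0.33 on the excitatory-neuron scale). Cholesterol synthesis genes numbered 24, of which 16 were lower and 2 higher in IP (median -0.67), while 19 were lower in input (-0.79), and IP minus input passed in 3 (6 with the block). Sqle, squalene epoxidase, was at 189, 134 and 150.4 CPM in tumor IP, 60.7, 42.4 and 39.9 CPM in AZD IP and 70.7, 68.3 and 66.8 CPM in control IP. Its log2 fold was -1.73 ± 0.17 in IP and -1.54 ± 0.16 in input. Idi1 and Cyp51 fell with log2 folds of -1.63 and -1.28. Fdft1, squalene synthase, was among those that rose in IP (0.47 ± 0.11; -0.45 on the excitatory-neuron scale). The sterol element letters TCACNCCAC, on either strand, stood in 1 of 16 cholesterol promoters (6.25%) and 1.41% of all.

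Fatty acid synthesis genes were lower in 12 of 15 in IP (median -1.06, input -0.32). Scd2, a desaturase, was at 1497, 1674 and 1464 CPM against 687, 544 and 571 CPM with an input log2 fold of -0.08. Srebf1, the SREBP gene of lipid synthesis, and Scd1 had log2 folds of -2.27 ± 0.15 and -2.06 ± 0.14.

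Immediate-early genes, which neurons and glia induce on stimulation, were lower in 23 of 33 and higher in 0 in IP (median -1.19), and lower in 13 in input (-0.86). Fos was at 83.2, 189.9 and 94.6 CPM in tumor IP, 19.7, 16.4 and 20.7 CPM in AZD IP and 34.0, 17.9 and 8.76 CPM in control IP. Tumor IP replicate 2 was the highest, and the groups did not overlap without it either (log2 fold -2.70 ± 0.44 in IP, -2.14 ± 0.39 in input). Fosl2 fell to a like degree in both fractions (-1.52 ± 0.16 and -1.38 ± 0.17). Atf3, a stress-induced factor, and Cyr61, a matrix-associated protein, had the largest falls of the list (-4.12 ± 0.44 and -3.05 ± 0.34), at 0.386, 0.14 and 0.394 CPM and 2.93, 3.92 and 3.81 CPM in AZD IP. Trib1, a pseudokinase, fell from 178, 100.4 and 98.4 to 27.5, 29.9 and 31.7 CPM. Arc, a gene of synaptic activity in neurons, did not pass in IP on the TMM scale. It was at 40.4, 281 and 97.6 CPM against 57.4, 90.4 and 121 CPM (adjusted p = 0.364; log2 fold 0.38 without tumor IP replicate 2), with a spread in tumor IP wider than the difference. Egr3 had a log2 fold of 0.41 ± 0.28 and passed without AZD IP replicate 1 (0.70), as did Nptx2 (-0.86). Bdnf, the neurotrophin, was at 44.0, 61.9 and 66.6 CPM against 65.8, 40.0 and 42.4 CPM in IP (adjusted p = 0.375) and fell in input (-0.97 ± 0.19, IP minus input adjusted p = 0.059, 7.75e-05 with the block). Nptx2, a pentraxin induced by activity, did likewise (-0.50 ± 0.27 in IP, -1.15 ± 0.18 in input, IP minus input adjusted p = 0.133, 0.000914 with the block). On the excitatory-neuron scale Arc, Bdnf and Nptx2 were lower in IP and passed (log2 folds -1.48, -1.11 and -1.42). The CRE letters TGACGTCA stood in 3 of 25 immediate-early promoters (12%) and 3.32% of all.

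**Figure D3:**
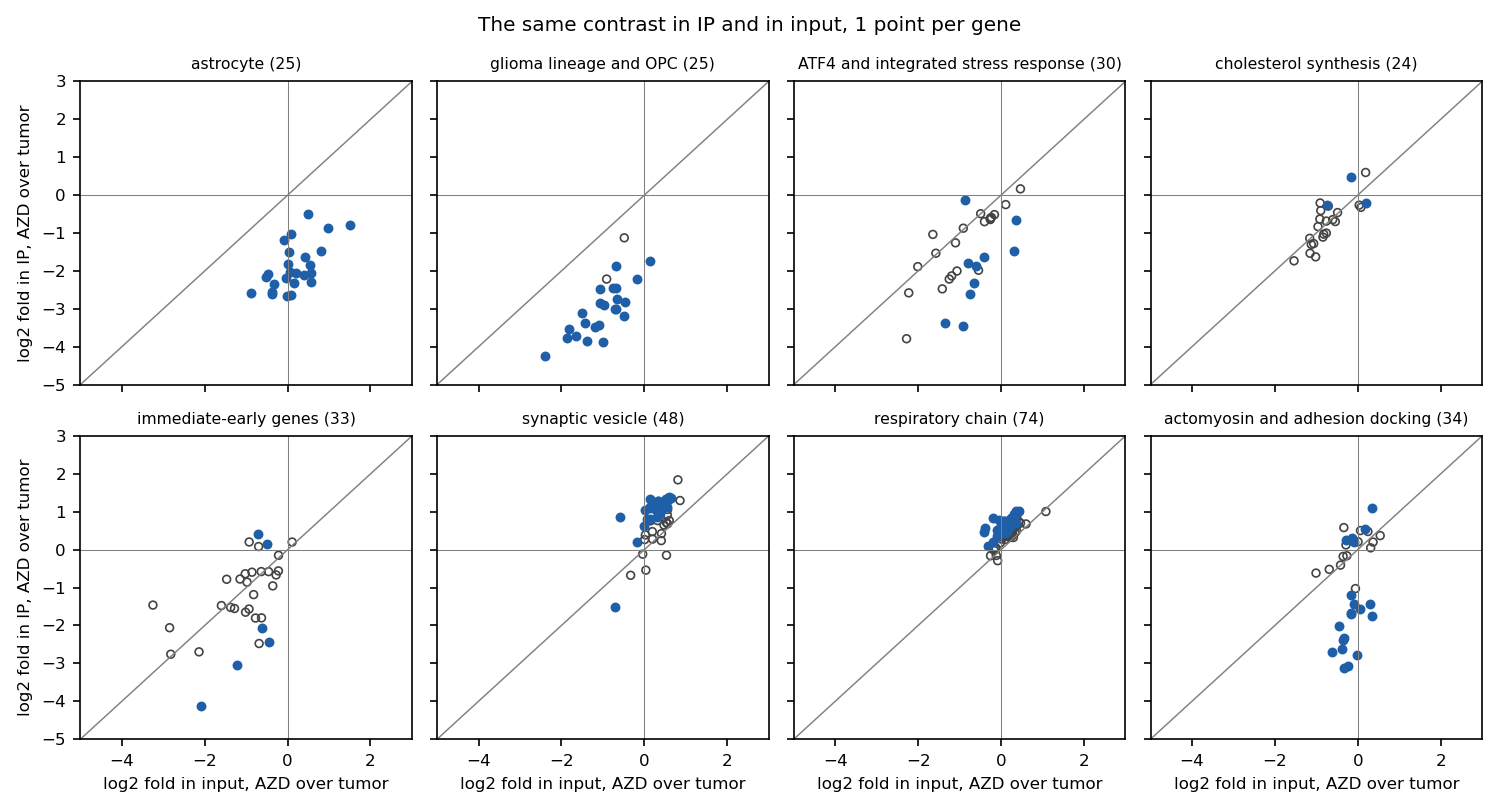
Each panel sets the log2 fold in IP (vertical axis) against that in input (horizontal axis), AZD over tumor on the TMM scale, for the tested genes of a list, with filled points where IP minus input passed without the block and the diagonal where both are equal. Astrocyte genes lie below the diagonal, actomyosin genes on both sides of it (15 of 34 with IP minus input lower and 5 higher), cholesterol genes lie along it, and respiratory chain genes lie above it with medians of 0.52 in IP and 0.13 in input (-0.40 in IP when scaled on excitatory-neuron genes).

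Genes of the inhibited pathway itself moved both ways, with 17 of 50 mTOR pathway genes higher and 10 lower against 25.1% and 33.5% of all genes (median log2 fold 0.073; -0.85 on the excitatory-neuron scale). Mtor, the kinase gene, was at 74.7, 75.9 and 76.3 CPM against 89.9, 107 and 99.4 CPM (log2 fold 0.39 ± 0.12, and -0.54 on the excitatory-neuron scale). The call for Mtor was lost without AZD IP replicate 2 (0.33) and under plain totals (0.25). Its substrate kinase gene Rps6kb1 did not pass (-0.093 ± 0.09). Eif4ebp1, the translational repressor 4E-BP1, fell from 11.9, 5.30 and 5.09 to 2.01, 1.47 and 1.58 CPM, a log2 fold of -2.15 ± 0.35 in IP and -2.07 ± 0.38 in input. Eif4ebp2, the main 4E-BP of brain, fell less (-0.97 ± 0.15). Sesn2, a leucine sensor upstream of mTOR complex 1 and an ATF4 target, fell by similar amounts in both fractions (-1.53 ± 0.23 and -1.57 ± 0.26), while its relative Sesn1 rose in both (1.03 ± 0.13 and 0.72 ± 0.12). Sesn1 was at 128, 171 and 148 CPM in AZD IP and 96.3, 113 and 119 CPM in AZD input, above all 12 libraries of the other sets. Deptor, an inhibitory partner of mTOR, rose from 9.98, 19.0 and 14.3 to 33.3, 28.6 and 25.8 CPM. Further regulators rose, namely Nprl2 of the GATOR1 complex (0.92), Ulk1, the autophagy kinase (0.62), and Tsc1 (0.59); the last pair turned to -0.29 and -0.31 on the excitatory-neuron scale. Akt2, Irs1 and the stress inhibitor Ddit4 fell in IP (-0.81, -0.83 and -0.65). FoxO and insulin response genes numbered 25, of which 13 were lower and 4 higher (median -0.53).

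Messages with TOP tracts, the class known as most sensitive to mTOR inhibition, were examined as levels in the IP. Tumor IP also held glioma-lineage and astrocyte markers (8085 to 9263 and 6566 to 8764 CPM), so these levels are not of excitatory neurons alone. Of 77 cytosolic ribosomal protein genes 21 were lower and 7 higher, both below the shares of all genes, with a median log2 fold of -0.15 in IP and 0.12 in input. The excess of lower calls varied with the libraries and the scaling. Without tumor IP replicate 1, 10 were lower and 15 higher (median -0.0037), and DESeq2 called 10 each way. Without AZD IP replicate 1, 28 were lower and 4 higher, and under plain totals 30 and 3. On the excitatory-neuron scale 73 were lower and 0 higher (median -1.09), where the median of all genes was -1.02. Summed, the list stood at 9169, 7015 and 7071 CPM in tumor IP and 7872, 6516 and 6568 CPM in AZD IP, replicate 1 being the highest of each group. IP minus input was lower for 5 and higher for 3 of 78 (22 and 3 with the block). Ribosomal protein genes have many pseudogene copies, as histone, globin and class I genes have near copies, and how shared reads were counted is not given in the sources used here, so their counts are uncertain. Other TOP mRNAs were lower in 10 of 31 (32.3%) and higher in 5 (16.1%), against 33.5% and 25.1% of all genes. On the excitatory-neuron scale 28 were lower and 1 higher. A tract, taken as a C followed by at least 4 pyrimidines starting within 5 bases of the annotated start, was present in 28 of 57 ribosomal protein promoters (49.1%), 10 of 23 other TOP genes (43.5%) and 2697 of 11459 promoters of all genes tested (23.5%). The following 30-base windows, from 10 bases before the annotated start, show members that moved in opposite directions, with the tract in capitals.
Rpl18 (chr7:45718061-45718090, plus strand): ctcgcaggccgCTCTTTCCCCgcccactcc
Rps10 (chr17:27635225-27635254, minus strand): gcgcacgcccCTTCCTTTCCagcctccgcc
Rps9 (chr7:3704031-3704060, plus strand): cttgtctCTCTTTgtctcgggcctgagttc
Rpl38 (chr11:114668570-114668599, plus strand): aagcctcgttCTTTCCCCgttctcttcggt
Vim (chr2:13574301-13574330, plus strand): ttgtccagtCCTCTgccactcttgctccgg
Rpl18 fell from 71.0, 48.5 and 53.1 to 39.9, 32.5 and 31.3 CPM (log2 fold -0.74 ± 0.15), and Rps10 and Rps9 fell by 0.74 and 0.51 on the log2 scale. Rpl38 has a tract of like length and rose, from 48.8, 35.1 and 35.0 to 75, 58.7 and 64.8 CPM (log2 fold 0.74 ± 0.14; -0.21 on the excitatory-neuron scale). Rps28 rose as well (0.61 ± 0.16, and -0.35 on that scale), a call lost under plain totals (0.46). Ribosomal protein genes with a tract found had a median log2 fold of -0.064 (28 genes) and those with none found -0.15 (29 genes). Among other TOP genes the medians were -0.0061 with a tract found (10 genes) and -0.12 with none found (13 genes). A tract not found at the annotated start is not shown to be absent from the mRNA. The split therefore cannot show whether the tract mattered. Rpl13 had the largest fall of the ribosomal proteins named here (-0.88 ± 0.14).

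Rpl22, the protein that carries the tag, was at 176, 115 and 124 CPM in tumor IP, 94.0, 81.6 and 79.5 CPM in AZD IP and 53.5, 49.0 and 47.3 CPM in control IP. Its log2 fold was -0.71 ± 0.15 in IP and -0.0089 ± 0.18 in input, and counts per symbol do not separate tagged from untagged transcripts. Eef2, the elongation factor, did not pass (log2 fold -0.12 ± 0.09). The neuronal elongation factor Eef1a2 rose from 291, 386 and 347 to 704, 784 and 733 CPM, and the helicase Eif4a2 from 431, 552 and 592 to 1039, 941 and 895 CPM (log2 fold 0.87 ± 0.13; -0.028 on the excitatory-neuron scale). Pabpc1, the poly(A)-binding protein, and Ybx1, an mRNA-binding protein, fell (-0.71 ± 0.09 and -1.02 ± 0.13). Vim, on the TOP and on the glioma list, fell in IP (-2.22 ± 0.35) and had a log2 fold of -0.18 ± 0.32 in input.

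**Figure D4:**
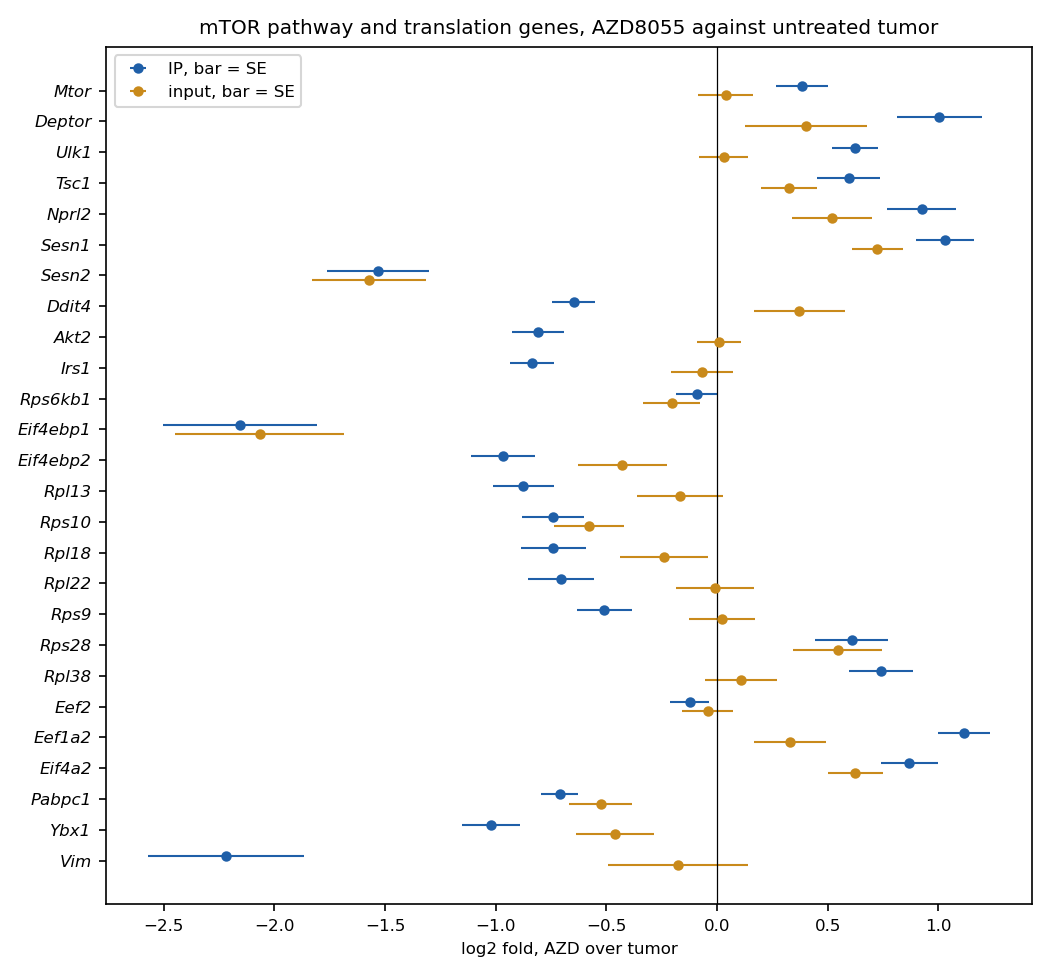
Points give the log2 fold, AZD over tumor on the TMM scale, of mTOR pathway and translation genes in IP (blue) and input (orange), with bars for the standard error from 3 libraries a group. Eif4ebp1 and Sesn2 fall alike in both fractions (-2.15 and -2.07, -1.53 and -1.57), and the ribosomal protein genes shown lie on both sides of 0, with Rpl38 at 0.74 (-0.21 when scaled on excitatory-neuron genes).

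Most respiratory chain genes were higher on the TMM scale. Of 74 respiratory chain genes 62 were higher and 1 lower (83.8% against 25.1%), with a median log2 fold of 0.52 in IP and 0.13 in input (-0.40 in IP on the excitatory-neuron scale). IP minus input was higher for 35 (51 with the block) and lower for 0. Uqcr10, a complex III subunit, was at 45.6, 41.2 and 44.8 CPM against 99.98, 84.6 and 85.0 CPM, a log2 fold of 1.03 ± 0.09. Cox7a2 of complex IV (0.97) and Ndufa5 of complex I (0.95) rose likewise, and Sdhc of complex II was the one that fell (-0.29 ± 0.10). The Sdhc call was lost without AZD IP replicate 2 or 3 (-0.27 and -0.22) or tumor IP replicate 3 (-0.26). It was also lost under DESeq2 (-0.21), RLE (-0.22) and upper-quartile scaling (-0.23), without the filter (-0.26) and with the 6 compared libraries alone (-0.21). Glycolysis and hypoxia genes rose in 15 of 28 and fell in 7 (median 0.60; -0.31 on the excitatory-neuron scale). The glycolytic enzymes Tpi1 and Pfkp rose with log2 folds of 1.30 ± 0.13 and 1.01 ± 0.11, and Gapdh went from 162, 191 and 189 to 312, 361 and 319.8 CPM (0.87 ± 0.11; -0.041 on the excitatory-neuron scale). Vegfa, the angiogenic factor induced by hypoxia and also an ATF4 target, fell from 93.1, 46.5 and 61.1 to 12, 13.6 and 17.1 CPM. Ldha, lactate dehydrogenase A, did not pass (0.34 ± 0.14), though it did under DESeq2 (0.42) and without tumor IP replicate 1 (0.46) or AZD IP replicate 3 (0.42).

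Protein turnover genes rose on the TMM scale, with 18 of 31 proteasome genes higher and 0 lower (median 0.34; -0.58 on the excitatory-neuron scale). Psmc1 and Psmc3, ATPases of the regulatory particle, rose with log2 folds of 0.90 ± 0.12 and 0.73 ± 0.12 (-0.011 and -0.18 on the excitatory-neuron scale). Lysosome and autophagy genes rose in 25 of 49 and fell in 11 (median 0.27; -0.64). The autophagosome protein gene Gabarapl1 was at 367, 426 and 496 CPM against 918, 928 and 903 CPM, and Atp6v1c1, a proton pump subunit, had a log2 fold of 1.07 ± 0.12. Tfeb, the transcription factor of lysosome genes that mTOR complex 1 holds in the cytoplasm, fell from 9.87, 6.30 and 8.09 to 0.926, 1.93 and 2.37 CPM (-2.14 ± 0.31). Npc1, the lysosomal cholesterol exporter, fell too (-1.78 ± 0.12). Chaperone and ER stress genes were split, 8 higher (26.7%) and 10 lower (33.3%) of 30, near the 25.1% and 33.5% of all genes. Hsp90aa1 and Hspa8, cytosolic chaperones, rose (0.95 and 0.63; the latter -0.28 on the excitatory-neuron scale). The co-chaperone Bag3 fell from 25.6, 18.2 and 19.0 to 1.08, 1.26 and 1.74 CPM, and Hspa5, the ER chaperone, did not pass (-0.28 ± 0.12), though it did without tumor IP replicate 1 (-0.38), with all 18 libraries in a single fit (-0.26), under plain totals (-0.41), with a 5 CPM minimum (-0.33) and on the excitatory-neuron scale (-1.19).

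Matrix, interferon and growth-signal genes were mostly lower in AZD IP. Of 35 extracellular matrix genes 31 were lower and 1 higher (median -1.80 in IP, -0.11 in input). Mmp15, a membrane metalloprotease, was at 313, 322 and 303 CPM in tumor IP and 29.5, 26.2 and 32.9 CPM in AZD IP, and Ncan, a proteoglycan of perineuronal matrix, at 633, 712 and 683 and 216, 224 and 212 CPM. Hapln4, a link protein of neurons, was the one that rose (0.92 ± 0.18; -0.00017 on the excitatory-neuron scale). Interferon response genes numbered 27, of which 23 were lower and 0 higher (median -1.64, input -0.27). Ifit3 fell from 26.8, 12.6 and 16.7 to 6.02, 5.22 and 4.53 CPM and Oasl2 from 18.1, 6.78 and 11.5 to 1.62, 2.31 and 2.27 CPM, and tumor IP replicate 1 was the highest for both. Stat2, a transducer of interferon signals, did not pass (-0.18 ± 0.18). Marker sums of glia, microglia, vessel and glioma cells fell over the same libraries, and their part in these lists was not tested. Antigen presentation genes numbered 16, of which 7 were lower (43.8%, against 33.5% of all genes) and 1 higher (6.25%). H2-K1 was at 34.5, 25 and 28.3 CPM against 10.3, 4.20 and 5.19 CPM, with a log2 fold of 0.65 ± 0.29 in input. B2m, the light chain of class I, fell by 1.08 on the log2 scale. ERK feedback genes numbered 19, of which 12 were lower and 2 higher, and the cyclin Ccnd1 on that list went from 1037, 1096 and 891 to 152, 167 and 172 CPM. Target genes of p53 were lower in 7 of 17 (41.2%) and higher in 1 (5.88%), against 33.5% and 25.1% of all genes.

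Genes of the actin-myosin cytoskeleton and its docking proteins were lower in 17 of 34 and higher in 6. Myh9, non-muscle myosin heavy chain, was at 430.0, 491 and 469 CPM in tumor IP, 64.2, 49.3 and 52.4 CPM in AZD IP and 71.5, 64.9 and 68.3 CPM in control IP. In input it was at 206, 137 and 168 CPM with tumor and 167, 148 and 122 CPM with AZD, so tumor IP stood above its own input while AZD IP stood below (IP minus input log2 fold -2.79, adjusted p = 9.79e-08). The unconventional myosin Myo6 (-2.78 ± 0.18, input -0.014) and the kinase Rock1 (-1.67 ± 0.12, input -0.16) fell in IP as well. Actb, cytoplasmic actin, did not pass (-0.16 ± 0.13), with 2709.9, 2199 and 2111 CPM against 2313, 2048 and 1919 CPM.

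Ranked by log2 fold among genes that averaged 10 CPM or more and whose groups did not overlap (of all genes tested, 27.3% were higher and 35.9% lower without overlap), the falls were led by genes of the glioma lineage named above and by Moxd1, a monooxygenase-like protein (119, 86.4 and 41.6 to 4.56, 5.25 and 4.80 CPM, log2 fold -4.07 ± 0.33), and Tmem100, a membrane protein (-3.82 ± 0.18). Eps8, an actin-capping adaptor, fell by 3.03 on the log2 scale with an input log2 fold of -0.57. Rises were smaller. Dkkl1, a secreted protein related to Dickkopf, went from 4.29, 7.0 and 7.72 to 21.2, 26.6 and 22.8 CPM (log2 fold 1.88 ± 0.22), and Tnnc1, troponin C, from 3.63, 5.09 and 3.34 to 19.8, 16.3 and 12.8 CPM (2.01 ± 0.21). The hexokinase-like gene Hkdc1 (1.86 ± 0.19), Igfbp6, which binds insulin-like growth factor (1.61 ± 0.14), Ociad2 (1.63 ± 0.13) and Fam131a (1.62 ± 0.16) rose too.

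**Figure D5:**
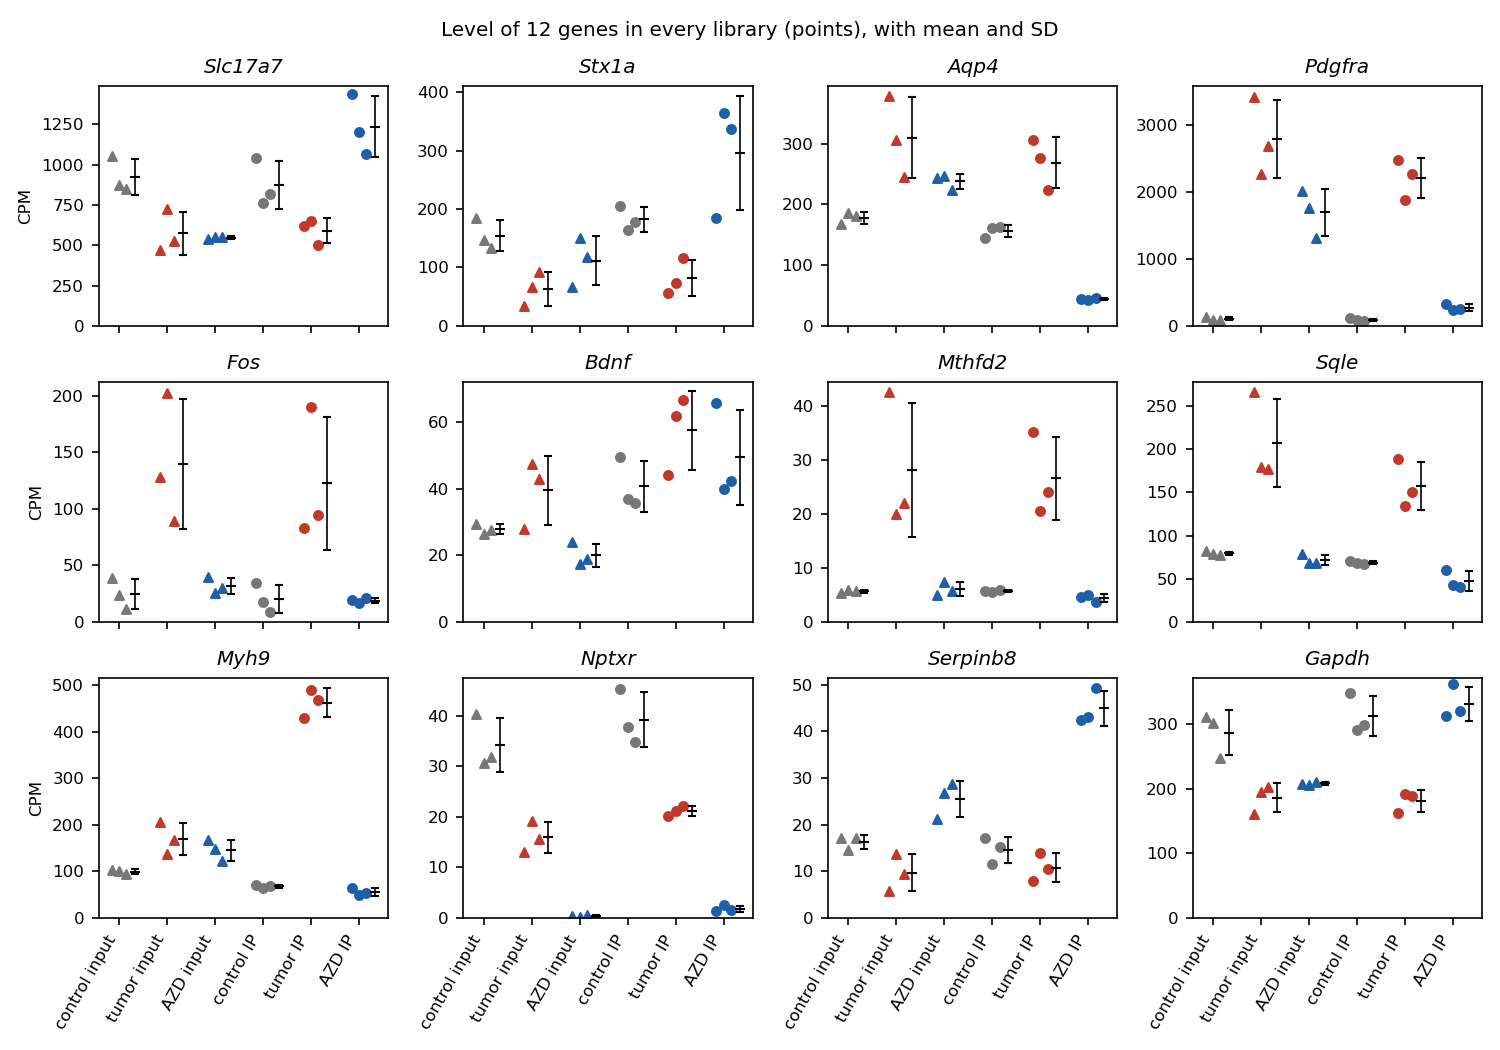
Points give the level (CPM) of 12 genes in every library, triangles for input and circles for IP, grey for control, red for tumor and blue for AZD, with the mean and SD of the 3 libraries beside them. Slc17a7 and Stx1a are highest in AZD IP, Aqp4, Pdgfra and Myh9 fall in AZD IP far more than in AZD input, Fos, Mthfd2 and Sqle fall in both, Bdnf overlaps in IP, Nptxr and Serpinb8 set both AZD groups apart from all others, and Gapdh rises on this scale (-0.041 on the log2 scale when scaled on excitatory-neuron genes).

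Genes that control mice alone mark as ribosome-enriched give a set defined without any of the 6 compared libraries. Control IP against control input called 36.5% of genes. Of the 2644 that were higher in control IP, 1157 were higher in AZD IP than in tumor IP (43.8% against 25.1% of all genes) and 520 lower (19.7% against 33.5%; 80 higher and 1962 lower on the excitatory-neuron scale), with a median log2 fold of 0.22 in IP and 0.11 in input. Members of the enriched set with a log2 fold of at least 0.5 in control were less one-sided, with 261 higher and 179 lower. The number of such members is not given here, so no share stands beside these counts. Of the 2725 tested genes depleted in control IP, 417 were higher (15.3%) and 1144 lower (42.0%), with medians of -0.31 and -0.070.

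Because treatment and library set coincide, genes in which all 6 PD028 libraries lay beyond all 12 others were counted: 132 of the higher genes (3.34%) and 83 of the lower (1.57%). Genes in which the AZD IP libraries alone lay beyond the other 15 libraries numbered 1154 (29.2%) and 2098 (39.8%). Nptxr, the neuronal pentraxin receptor, belonged to the 83. It was at 20.2, 21.1 and 22.1 CPM in tumor IP and 13.1, 19.2 and 15.6 CPM in tumor input, and at 1.39, 2.45 and 1.51 CPM in AZD IP and 0.293, 0.135 and 0.651 CPM in AZD input. Its log2 fold was -3.52 ± 0.19 in IP and -5.43 ± 0.34 in input, whereas its ligand gene Nptx1 was higher in IP. Serpinb8, a protease inhibitor, rose in both fractions (2.06 ± 0.20 and 1.40 ± 0.26). Rnu12, a minor spliceosome RNA, rose from 1.95, 0.826 and 0.719 to 19.4, 12.8 and 11.2 CPM in IP (3.68 ± 0.35) and in input (1.61 ± 0.45), and the snoRNA gene Snord15b, which lies inside a host gene that may share its reads, from 1.57, 2.65 and 3.75 to 10.9, 14.9 and 36.6 CPM. Of 14 sno and scaRNA genes 5 were higher (35.7%) and 3 lower (21.4%), against 25.1% and 33.5% of all genes. Among the lower was Rmrp, the RNA of RNase MRP, which fell from 894, 426 and 445 to 252, 186 and 181 CPM. The part of the library set in these values was not tested.

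Abundant long noncoding RNAs were higher in 2 of 16 (12.5%) and lower in 1 (6.25%), against 25.1% and 33.5% of all genes. The lower gene was Malat1, a nuclear RNA, at 9106, 8499.6 and 8658 CPM against 2776, 4093 and 6043 CPM. In control IP it was at 3512, 8866 and 6573 CPM. Its call was lost without AZD IP replicate 1 or 2 (log2 folds -0.79 and -0.99). Clock genes were higher in 9 of 17 and lower in 2 (median 0.59; -0.32 on the excitatory-neuron scale), with Cry2 (1.02 ± 0.18) and Arntl (0.90 ± 0.17; -0.027 on that scale) higher and Cry1 lower (-0.53 ± 0.10). The time of day of collection is not in the labels, and its part was not tested.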

How the data were processed

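The authors deposited raw, whole-number read counts for 23420 gene symbols in 18 libraries, not normalized. Per the labels' protocols, RNA was cleaned with an RNeasy Mini kit and libraries were built with a NEBNext Ultra Directional kit. STAR, DESeq2 and mm10 appear in the submitters' processing notes; for versions, counting tool, annotation and strand the sources used here give nothing. RefSeq symbols matched 21571 of the table's symbols (92.1%), or 99.3% with synonyms.

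The 9 IP libraries (13561511 to 34178417 counts each) were fitted together in edgeR 4.0.16 under R 4.3.3, with TMM scaling, filterByExpr, the quasi-likelihood F test and Benjamini-Hochberg adjustment over all genes tested. The contrast was AZD IP minus tumor IP. Input was fitted on its own 9 libraries, and IP minus input on all 18. A standard error is the absolute log2 fold divided by the square root of F. Depth limits the precision of genes with low counts. The script was tested on simulated counts.

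Same-numbered input and IP libraries of a condition deviated together from their group means over 11865 genes, with correlations of 0.32 to 0.37 (control), 0.66 to 0.89 (tumor) and 0.30 to 0.63 (AZD). The number was therefore taken to pair fractions within a condition, from these values and not from the labels, and IP minus input is also given with it as a block. Differently numbered input and IP libraries correlated at up to 0.075 (control), 0.41 (tumor) and 0.27 (AZD). The pairing is thus less sure in AZD, where replicate 3 gave 0.30.

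The comparison, its 45 gene lists and the rule for named genes were chosen with earlier results of these data known. By that rule, called genes that averaged 10 CPM or more, with groups apart, were ranked by log2 fold and named from the 15 at either end, with shorter rankings for genes without the library-set pattern and for genes enriched in control IP. From each list up to 6 members in each direction by adjusted p, the extremes, and no more than 4 members that missed the threshold could be named, and some genes were fixed. Promoter sequences are RefSeq's on GRCm38.p6 and were at hand for 11459 of 15734 genes tested. Alternatives were DESeq2 1.42.0, other scalings, filters and sample sets, the replicate block and leaving out each library. Figures were drawn with matplotlib 3.10.9.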

Additional observations from a re-analysis of the deposited data

Results flagged for a closer look

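The difference between AZD and tumor was not the same in IP and in input for 5296 of 16016 genes by the test of IP minus input (edgeR, adjusted p under 0.05), and for 116 of the 187 genes named here. C1qa fell in IP and rose in input, with an IP minus input log2 fold of -2.76. Slc2a1 did likewise, with -1.53, and Vip with -2.56. These are the named genes that passed in opposite directions in IP and input. Control and tumor input are in library set PD013, control and tumor IP in PD015 and both AZD fractions in PD028, so this contrast also spans the sets.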

How the results depend on the processing

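AZD IP against tumor IP called 9229 genes, 7472 to 9339 under other sample sets, DESeq2, other filters, RLE, upper-quartile or plain-total scaling, and 7936 to 9090 (3383 to 3880 higher, 4553 to 5210 lower) without 1 library. The higher share of calls, 42.8%, was 48.5% with 6 libraries, 48.7% under DESeq2, 48.6% under RLE, 48.1% under upper-quartile scaling and 33.2% under plain totals. Scaling on excitatory-neuron genes gave 196 higher (1.58% of calls) and 12203 lower, with 5471 calls kept and 1698 turned. Genes enriched in control IP (1157 higher, 520 lower) then had 80 higher and 1962 lower. On the TMM scale, those of the set with a log2 fold of at least 0.5 in control IP over control input had 261 higher and 179 lower, a less one-sided split. Same-numbered AZD IP and tumor IP libraries correlated at 0.25, -0.055 and 0.29, and the number was not taken to pair them. With the number as a block all the same, 3977 were higher and 5298 lower. For IP minus input, where the number was taken to pair fractions, the block raised 5296 calls to 8025 (3484 higher, 4541 lower). Leaving out 1 library gave 4095 to 6459. Input calls (2646) were 1359 to 2598 without 1 library, lowest without AZD input replicate 3 and next, at 1410, without AZD input replicate 2. The input alternatives and the omissions for IP minus input were chosen after seeing the data.

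On the excitatory-neuron scale list medians turned to -0.72 (cortical layer), -0.85 (mTOR pathway), -0.31 (glycolysis), -0.40 (respiratory chain), -0.58 (proteasome), -0.64 (lysosome), -0.54 (glutamate synapse), -0.16 (GABA receptors), -0.36 (potassium channels), -0.20 (sodium, calcium and HCN channels), -0.31 (cytoskeleton), -0.32 (clock), -0.33 (monoamine and peptide receptors) and -0.86 (sno and scaRNAs). The mTOR median was -0.060 under plain totals. Neuropeptides turned to 0.058 (6 libraries), 0.21 (5 CPM) and ranged from -0.24 to 0.12 without 1 library. Long noncoding RNAs turned to 0.016 (6 libraries), 0.021 (DESeq2), 0.017 (RLE) and ranged from -0.19 to 0.039 without 1 library. The sno and scaRNA median turned to -0.081 (DESeq2), -0.061 (plain totals), -0.85 (5 CPM), -0.15 (no filter) and ranged from -0.021 to 0.38 without 1 library. On the excitatory-neuron scale 20 of 187 named genes turned: Arntl -0.027, Cux2 -0.20, Dlg4 -0.049, Egr3 -0.51, Eif4a2 -0.028, Fdft1 -0.45, Gapdh -0.041, Gria1 -0.083, Hapln4 -0.00017, Hars -0.33, Hspa8 -0.28, Ldha -0.60, Mtor -0.54, Psmc1 -0.011, Psmc3 -0.18, Rpl38 -0.21, Rps28 -0.35, Tsc1 -0.31, Ulk1 -0.29 and Vgf -0.067. Another 20 kept their sign there and no longer passed, and 13 that had not passed were lower and passed there. Without 1 library Asns ranged from -0.27 to 0.14 and Arc from -1.07 to 0.38, passing in no such fit. The cause of these changes was not tested.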
